A study of Mus musculus with 2 samples.

Results

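A list of 40 genes of the leukocyte actin cytoskeleton and of adhesion plaques was examined in LT-HSC, the long-term haematopoietic stem cells of the bone marrow that keep the blood supplied for life. The set was a fixed list of 40 symbols: actin monomer binders, filament severing and capping proteins, bundlers, elongation factors, myosin and tropomyosin, proteins that link actin to the membrane, and adhesion-plaque proteins. It was matched to the gene names of the array, and all 40 were found among 24172 named genes, with 88 array sequences between them (13 genes had 1 sequence and 27 had several). The formin gene listed as Diap1 is now named Diaph1. Each gene is represented by its brightest sequence, judged by the mean log2 value over both arrays, and its other sequences serve as a check.

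The cells came from femoral marrow of C57/BL6 mice, sorted by flow cytometry: LT-HSC of WASH knockout mice (WASH KO) on 1 array, and LT-HSC of wild type control mice on the other. WASH activates the Arp2/3 complex on endosomes. The labels give no allele, Cre driver, age, sex or number of animals for either array. With 1 array per genotype there is no replicate spread, so no difference below has an SE or a p-value, and the number of arrays limits the precision of every value. A difference between 2 animals or 2 sorts cannot be told apart from a difference between the genotypes.

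Cells assemble actin monomers into filaments, which are then bundled, tied to the membrane or taken apart again so that the monomers can be reused. Thymosins and profilin hold the monomer pool. Cofilins sever old filaments, formins and Ena/VASP proteins lengthen new ones, and plastins, filamin and alpha-actinins join filaments into networks. Talin, kindlin, vinculin, paxillin and zyxin sit where integrins meet the filament ends, and blood cells use these plaques to adhere and crawl.

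Values are intensities on a linear scale, made comparable between arrays by RMA (robust multi-array average), and differences are log2 intensity of WASH KO minus control, so that -1 is 2-fold lower in WASH KO. A gene counted as detected, or in the detected range, if its brighter reading exceeded the median of the array that gave it. The median sequence was at 137.5 on the WASH KO array and 136.9 on the control array, and 5000 probes of random sequence gave a background level of 75.7 on the WASH KO array and 71.3 on the control array. Of the 40 genes, 36 were in the detected range. Limk2, Enah, Marcks and Plek were not. In bulk RNA of this kind, fewer cells of a type and less RNA per cell cannot be told apart.

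Washc1, the targeted gene, read 107 in WASH KO and 119 in the control from its single sequence (-0.15), not in the detected range; where its probes lie relative to the deletion is not known here, so the reading does not check the genotype labels. The LT-HSC label was set against marker genes. Of 15 LT-HSC markers measured, 9 were in the detected range, with a median difference of -0.10. Ly6a, which encodes Sca-1, was at 596 in WASH KO and 835 in the control, and Kit, the stem cell factor receptor gene, at 489 in WASH KO and 398 in the control. Esam, an adhesion gene of stem cells, was at 742 in WASH KO and 447 in the control. Slamf1 was low on both arrays, at 123 in WASH KO and 147 in the control. Another 3 stem cell markers, among them Procr and Fgd5, were at or below the random-sequence level on both arrays. The 15 LT-HSC markers summed to 3547 in WASH KO and 3690 in the control. The brightest neutrophil and globin genes read far higher on both arrays. Other neutrophil markers did not: Elane and Prtn3 were not in the detected range, and Cebpe was at 162 in WASH KO and 158 in the control. S100a8 was at 16696 in WASH KO and 47334 in the control, and Hbb-b1 at 43218 in WASH KO and 5699 in the control. The markers thus do not show either sample to be LT-HSC alone, and the share of other cells was not tested. Further neutrophil and erythroid values are given beside the results they move with.

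Promoter windows are shown for a few members. SRF (serum response factor), a regulator of many cytoskeletal genes, binds a 10-base motif known as the CArG box. Windows from 250 bases before to 50 bases after a gene's start were taken from RefSeq (build GRCm38.p6), which held 35 of the 40 genes. A CArG box was found in 2 of these 35 genes (5.71%), Myl6 and Vcl, against 488 of all 27025 genes (1.81%). Both windows are shown with the box in capitals, Myl6 from chr10:128492960-128493259 (minus strand) and Vcl from chr14:20929148-20929447 (plus strand). The box began 50 bases before the start in Myl6 and 227 bases before it in Vcl.
Myl6: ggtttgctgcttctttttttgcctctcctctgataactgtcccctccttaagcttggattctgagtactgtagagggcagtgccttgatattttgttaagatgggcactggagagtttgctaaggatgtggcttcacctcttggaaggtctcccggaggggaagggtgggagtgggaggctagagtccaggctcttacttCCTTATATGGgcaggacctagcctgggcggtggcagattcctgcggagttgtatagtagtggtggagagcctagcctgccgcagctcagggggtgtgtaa
Vcl: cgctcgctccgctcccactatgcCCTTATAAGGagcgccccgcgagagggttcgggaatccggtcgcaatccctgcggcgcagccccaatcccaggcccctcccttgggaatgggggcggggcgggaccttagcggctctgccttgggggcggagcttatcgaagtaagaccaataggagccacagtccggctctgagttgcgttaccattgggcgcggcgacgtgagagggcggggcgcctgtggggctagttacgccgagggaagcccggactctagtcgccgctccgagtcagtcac
The GC box GGGCGG, searched on both strands and chosen after the data were seen, was present in 29 of the 35 genes (82.9%), in 55.8% of the genes in the detected range that had a window, and in 38.2% of all genes. It is shown in capitals in the windows of Lcp1 (chr14:75130873-75131172, plus strand, the first of its 2 windows) and Tmsb4x (chrX:167209169-167209468, minus strand). Among members at more than 2 times the random-sequence level on both arrays, Lcp1 had the lowest difference (-1.83). Diap1 (-1.66), for which no window is shown, came next, and then Tmsb4x (-1.48).
Lcp1: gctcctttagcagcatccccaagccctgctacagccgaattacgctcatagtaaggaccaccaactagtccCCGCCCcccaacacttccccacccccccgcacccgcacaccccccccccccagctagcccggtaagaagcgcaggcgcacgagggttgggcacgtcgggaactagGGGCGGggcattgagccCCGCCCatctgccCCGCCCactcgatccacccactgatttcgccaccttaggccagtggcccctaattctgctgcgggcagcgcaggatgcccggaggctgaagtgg
Tmsb4x: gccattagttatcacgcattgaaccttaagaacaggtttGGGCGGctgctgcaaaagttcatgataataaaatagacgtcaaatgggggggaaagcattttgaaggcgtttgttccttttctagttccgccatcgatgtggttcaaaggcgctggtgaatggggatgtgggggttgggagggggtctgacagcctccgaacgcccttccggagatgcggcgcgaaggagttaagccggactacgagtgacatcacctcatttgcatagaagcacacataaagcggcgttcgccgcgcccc
Lcp1 held 4 GC boxes and Tmsb4x held 1. A match describes these letters only, and no binding was measured.

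Most of the actin-binding genes had lower intensities on the WASH KO array. Of the 36 genes detected, 27 were lower and 9 higher, and the median difference was -0.55, beside 0.03 for all 16246 genes in that range, 48.3% of which were lower. A total of 11 were at least 2-fold lower: Pxn, Lcp1, Diap1, Tmsb4x, Dstn, Cap1, Msn, Capg, Cfl1, Flna and Gsn. That is 30.6% of the members in the detected range, where 7.29% of all genes were at least 2-fold lower. Fermt3 alone was at least 2-fold higher, where 6.41% of all genes were. Among genes above percentile 75 of their array, 9 of 29 members were at least 2-fold lower, where 7.13% of all such genes were, and 1 was at least 2-fold higher, where 5.68% were. Pxn, Capg and Gsn were in the detected range through the control alone. They were at 82.0, 97.1 and 95.7 in WASH KO, under the median of that array. With both values above 2 times the random-sequence level, 8 of 30 members were at least 2-fold lower, where 4.62% of all genes were. By that filter 1 was at least 2-fold higher, where 3.77% were. The list was put together with earlier results of these data known, so these shares describe it and are no independent evidence of its direction.

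**Figure D1:**
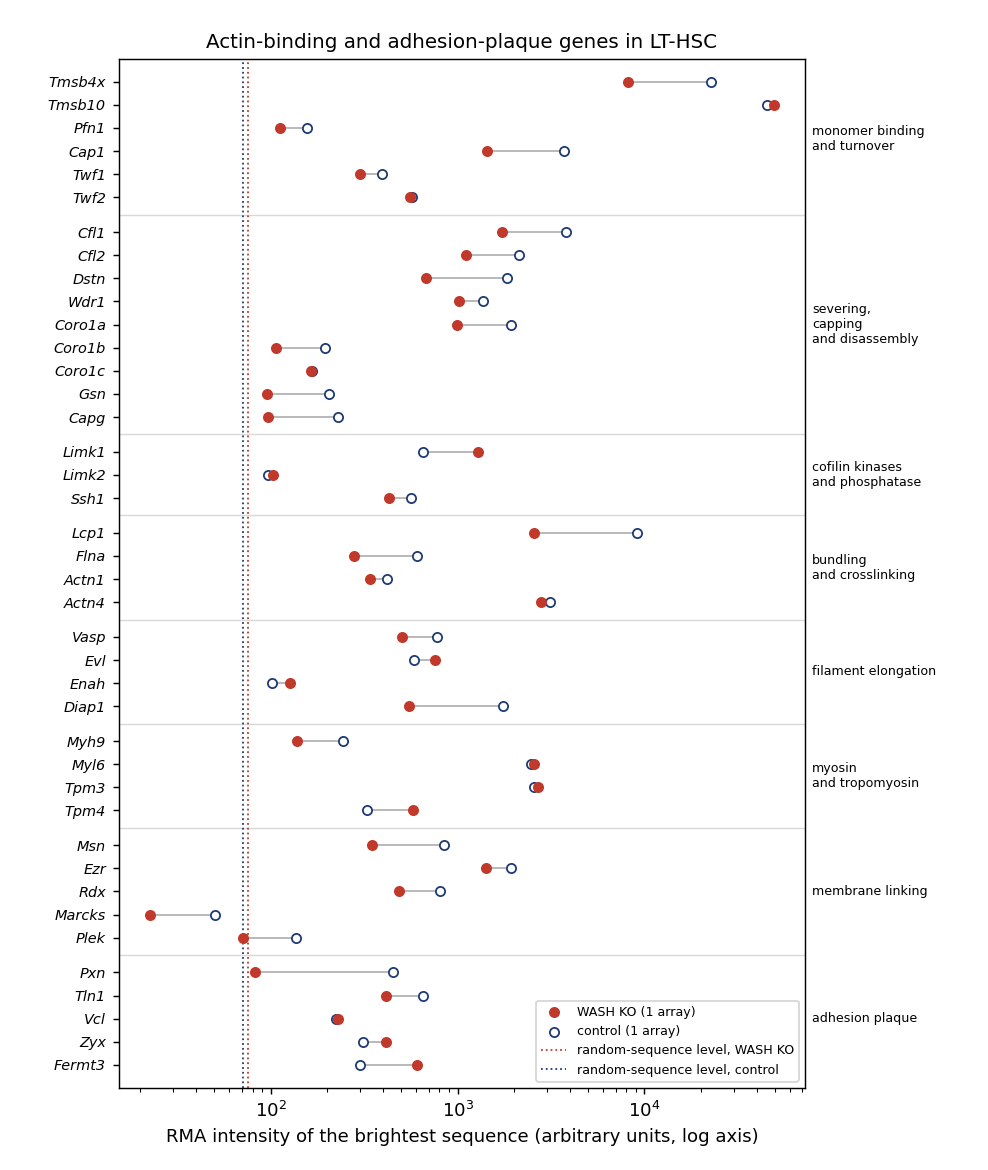
Intensity of the brightest sequence of each of the 40 genes on the WASH KO array (filled red) and the control array (open blue), on a log axis, grouped by role, with dotted lines at the random-sequence level of each array. The longest gaps to the left belong to Pxn, Lcp1 and Diap1, while Tmsb10, Myl6 and Tpm3 nearly coincide and Fermt3, Limk1 and Tpm4 lie to the right in WASH KO.

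Among the monomer-binding genes, the 2 beta-thymosins differed from each other. Tmsb4x (chromosome X, 163645024 to 163647066, MM9), whose product sequesters actin monomers, was at 8194 in WASH KO and 22846 in the control, a difference of -1.48. Tmsb10 (chromosome 6, 72907556 to 72908354), a close relative, was at 49360 in WASH KO and 45036 in the control, a difference of 0.13. Each thymosin had 1 sequence on the array, so neither value could be checked with a second one. Cap1, which recycles cofilin-bound monomers, was at 1437 in WASH KO and 3694 in the control (-1.36). Its other sequences in the detected range differed by -1.57 and -1.05, so all 3 were at least 2-fold lower, while another, outside that range, differed by -0.03. The profilin gene Pfn1 was at 112 in WASH KO and 157 in the control (-0.48), a low reading on both arrays. The twinfilins, which bind monomers and cap filament ends, were closer: Twf1 differed by -0.39 and Twf2 by -0.04, and the second sequence of Twf2 by 0.36. In all, 5 of the 6 genes of this role were lower, with a median of -0.44.

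All 9 genes of severing, capping and disassembly were lower in WASH KO, with a median of -0.95. The 3 members of the cofilin family were all lower. Dstn, which encodes destrin, was at 675 in WASH KO and 1829 in the control (-1.44). Cfl1, the non-muscle cofilin gene (chromosome 19, 5490559 to 5494031), was at 1732 in WASH KO and 3781 in the control (-1.13). Cfl2, known as the muscle cofilin gene, was at 1102.5 in WASH KO and 2130 in the control (-0.95). Each of these had 1 sequence; how far probes of related genes bind each other's transcripts was not tested.

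Wdr1, the cofilin cofactor that speeds disassembly, depended on the sequence read. Its brightest sequence was at 1021 in WASH KO and 1375 in the control (-0.43). Another was at 380 in WASH KO and 1323 in the control (-1.80), and the remaining one at 40.2 in WASH KO, under the random-sequence level, and 217 in the control, so that it was at least 2.87-fold lower in WASH KO. All 3 were lower. Among the coronins, which guide cofilin to old filaments, Coro1a, the form of blood cells, was at 998 in WASH KO and 1928 in the control (-0.95), and its second sequence differed by -0.74. Coro1b was at 107 in WASH KO and 196 in the control (-0.88). Coro1c was nearly equal, at 165 in WASH KO and 167 in the control; of its dim sequences, 1 differed by 0.17 and another was under the random-sequence level on both arrays. The calcium-regulated cappers were low on the WASH KO array. Capg was at 97.1 in WASH KO and 229 in the control (-1.24), and Gsn, the gelsolin gene, at 95.7 in WASH KO and 205 in the control (-1.10), with its second sequence at -1.21. Their WASH KO values were only 1.28 and 1.26 times the random-sequence level, so the sizes of these differences rest on values near background.

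The enzymes that switch cofilin off and on were not uniformly lower. Limk1, the kinase that inactivates cofilin, was at 1287 in WASH KO and 657 in the control, a difference of 0.97 and thus just short of 2-fold. Its other sequence in the detected range differed by 0.83, and a dim one by 0.13. Another dim sequence, under the random-sequence level in WASH KO, was at least 1.32-fold lower there. Limk2 was at 103 in WASH KO and 96.3 in the control, not in the detected range. Ssh1, the slingshot phosphatase that reactivates cofilin, was at 429 in WASH KO and 563 in the control (-0.39), and its second sequence, dim on both arrays, went the other way (0.57). Limk1 was the only member with several sequences in the detected range that were all higher in WASH KO.

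Lcp1, which encodes L-plastin, the filament bundler of leukocytes, had one of the lowest differences of the list. It was at 2570 in WASH KO and 9112 in the control (chromosome 14, 75597875 to 75612333), a difference of -1.83, or 3.55 times as much in the control. Its other sequences differed by -1.94 and -0.45, so all 3 were lower but to unequal extents. Filamin A, a crosslinker that also binds integrins, followed: Flna was at 278 in WASH KO and 604 in the control (-1.12), from 1 sequence. The alpha-actinin genes were less uniform. Actn4 was at 2809 in WASH KO and 3126 in the control (-0.15). Actn1 was at 340 in WASH KO and 420.5 in the control with its brightest sequence (-0.31), but another was at 81.7 in WASH KO and 509 in the control (-2.64), and the remaining one differed by -0.93. All 4 genes of this role were lower in WASH KO, with a median of -0.71.

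Of the elongation factors, the formin gene Diap1, whose product mDia1 adds monomers to the growing end, was lower with every sequence. It was at 550 in WASH KO and 1741 in the control (-1.66), and its other sequences were at 445 in WASH KO and 940 in the control (-1.08), and at 393 in WASH KO and 986 in the control (-1.33). Vasp, an Ena/VASP protein that shields filament ends from capping, was at 507 in WASH KO and 778 in the control (-0.62), and its 3 other sequences differed by -0.93, -0.94 and -1.27. Evl, its relative in blood cells, was at 760 in WASH KO and 587 in the control (0.37). The second sequence of Evl in the detected range was at 98.9 in WASH KO and 168 in the control (-0.77). A dim sequence of Evl differed by 0.22. Another dim one, under the random-sequence level in the control, was at least 1.67-fold higher in WASH KO. Enah was not in the detected range, at 126 in WASH KO and 102 in the control. Vasp and Diap1 were thus lower with all of their sequences, and the sequences of Evl disagreed.

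Myosin and tropomyosin genes had a median of 0.06 with their brightest sequences, 3 of the 4 being higher in WASH KO. Myl6, the essential light chain of non-muscle myosin, was at 2563 in WASH KO and 2467 in the control (0.05). Its other sequences gave -0.01, -0.78 and -1.56. Tpm3, a tropomyosin gene with many splice forms, was at 2687 in WASH KO and 2579 in the control (0.06), and its 5 other sequences were all lower, by 0.10 to 1.22 on the log2 scale. Which splice form each sequence reads was not analysed here. Tpm4 was at 575 in WASH KO and 325.5 in the control (0.82), with its second sequence at -0.22. Myh9, the heavy chain of non-muscle myosin IIA, was at 137 in WASH KO and 245 in the control (-0.83), at 1.82 times the random-sequence level in WASH KO. Its second sequence was under that level on both arrays and gave no fold.

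**Figure D2:**
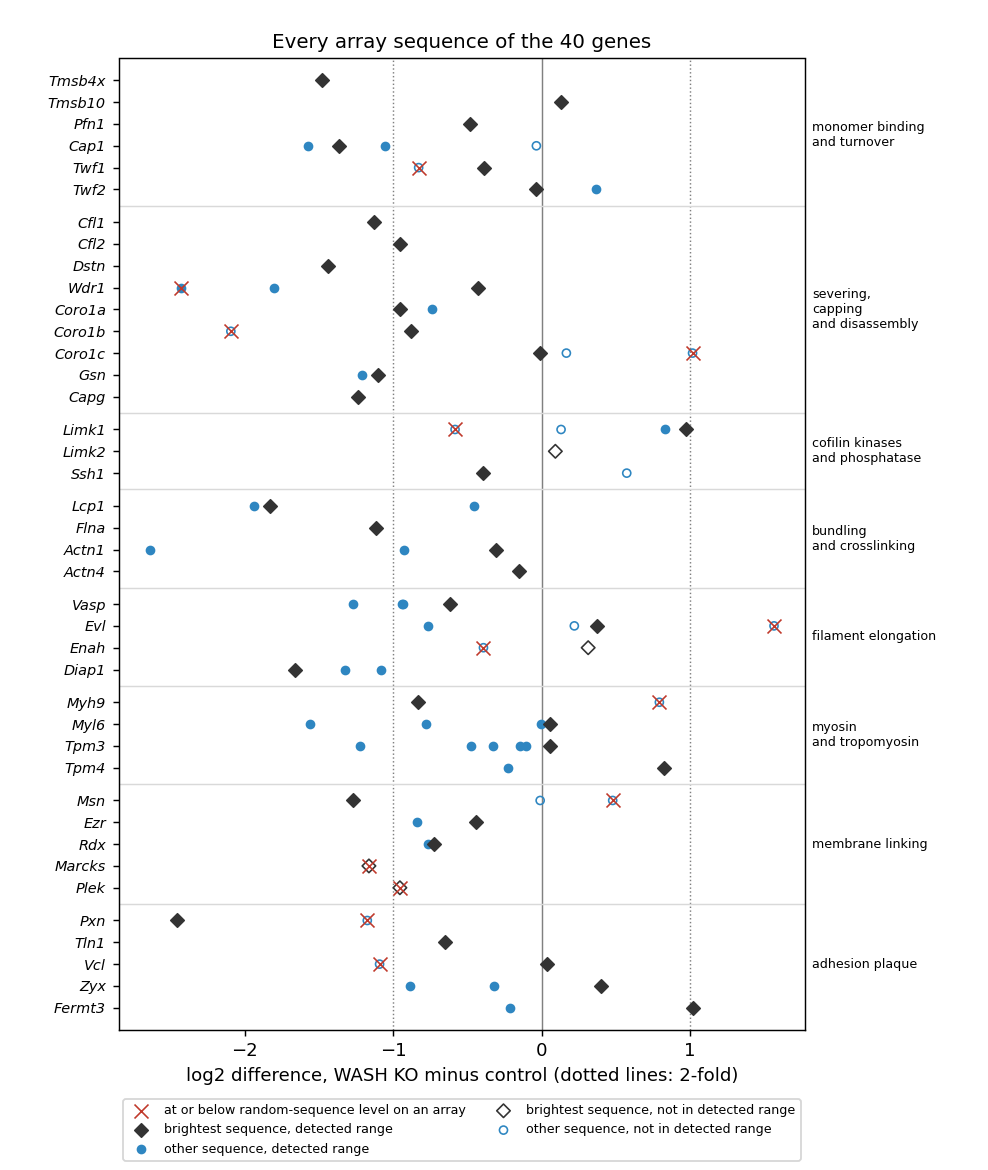
The log2 difference (WASH KO minus control) of every array sequence of the 40 genes, with diamonds for the brightest sequence, circles for the others, filled symbols for the detected range, dotted lines at 2-fold, and red crosses over sequences at or below the random-sequence level on an array, whose plotted difference is no measured size. Filled circles lie left of 0 except for those of Twf2 and Limk1, and the sequences of Cap1 and Diap1 in the detected range all lie beyond 2-fold, unlike those of Myl6, Tpm3, Wdr1 and Actn1, which spread widely.

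The genes that tie filaments to the membrane were lower where they could be measured. Msn, the moesin gene and the ERM protein of leukocytes (chromosome X, 93291401 to 93363826), was at 350 in WASH KO and 842 in the control (-1.27). Its other sequences could not check this value: 1 was dim on both arrays (-0.01), and another was under the random-sequence level on both. Rdx, the radixin gene, was at 487 in WASH KO and 806 in the control (-0.73), and its second sequence differed by -0.76. Ezr, the ezrin gene, was at 1416 in WASH KO and 1923 in the control (-0.44), and its second sequence differed by -0.84. The ERM genes were thus lower with each sequence in the detected range. Plek, which encodes pleckstrin, a protein kinase C substrate of platelets and leukocytes, lay just under the detected range, at 70.6 in WASH KO, which is under the random-sequence level there, and 137 in the control, so that it was at least 1.81-fold lower in WASH KO. Marcks was under the random-sequence level on both arrays and gave no fold.

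Adhesion-plaque genes divided. Pxn, which encodes the scaffold paxillin (chromosome 5, 115994351 to 116004147), was at 82.0 in WASH KO and 449 in the control, a difference of -2.45 and the lowest of the 36 genes. The WASH KO value was only 1.08 times the random-sequence level, and the second sequence, at 44.1 in WASH KO, under that level, and 99.5 in the control, gives only a bound of at least 1.31-fold lower. Tln1, the talin gene that activates integrins, was at 413 in WASH KO and 650 in the control (-0.65). The other plaque genes were level or higher. Vcl, the vinculin gene, was at 230 in WASH KO and 224 in the control (0.03), while a dim second sequence, under the random-sequence level in WASH KO, was at least 1.73-fold lower there. Zyx, the zyxin gene, was at 414 in WASH KO and 314 in the control (0.40), but its 2 other sequences differed by -0.32 and -0.89. Fermt3, the kindlin of blood cells and a partner of talin in integrin activation, was at 607 in WASH KO and 299 in the control (1.02), the only member at least 2-fold higher. Its second sequence was at 143 in WASH KO and 166 in the control (-0.21), so the higher reading of Fermt3 was not shared by its sequences.

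The sequences not used for the values above were mostly lower too. Of the 32 other sequences of the members in the detected range, 30 were lower in WASH KO, with a median of -0.86, beside a median of -0.01 over the 8653 other sequences of all genes. There were 18 members with several sequences in the detected range. In 10 of them all such sequences were lower, in 1 all were higher and in 7 they disagreed. Among all 4970 genes with several, 22.7% had all of them lower. Every such sequence was at least 2-fold lower in 3 members, Cap1, Diap1 and Gsn, which is 16.7% of the 18, where 1.19% of all such genes were. Both sequences of Gsn were in the detected range through the control alone. They were at 95.7 and 82.3 in WASH KO, under the median of that array. Among the other sequences, the same held for 1 each of Actn1, Zyx, Evl, Gsn and Wdr1, all of them counted as lower. Sequences of 1 gene share their RNA sample, so they check the probes and not the animals.

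Genes of the same pathways outside the list were read in the same way. Of 113 other actin and adhesion genes on the array, 99 were in the detected range. They were evenly divided, with 50 lower and 49 higher, and the median was -0.01. Of the 99, 8 (8.08%) were at least 2-fold lower and 7 (7.07%) at least 2-fold higher, where 7.29% and 6.41% of all genes were. Lowest were Skap2, an adaptor of integrin signalling, at 224 in WASH KO and 837 in the control (-1.90), the formin gene Diaph2 (-1.72), Ajuba (-1.64), the adaptor gene Fyb (-1.46) and the Rac regulator Arhgap15 (-1.38). The second sequence of Diaph2 differed by only -0.11, and those of Ajuba and Fyb were under the random-sequence level on both arrays. Highest among those measured above the random-sequence level on both arrays were Ank1, the ankyrin of red cells, at 764 in WASH KO and 193 in the control (1.99), Arap1 (1.96), Plek2 (1.19) and Fmnl3 (1.11). The other sequences of Fmnl3 differed by 0.92 and -0.87. Crk, an adaptor that binds paxillin, was under the random-sequence level in the control and at least 2.10-fold higher in WASH KO, a bound that has no place in this order, and its second sequence was under that level on both arrays.

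**Figure D3:**
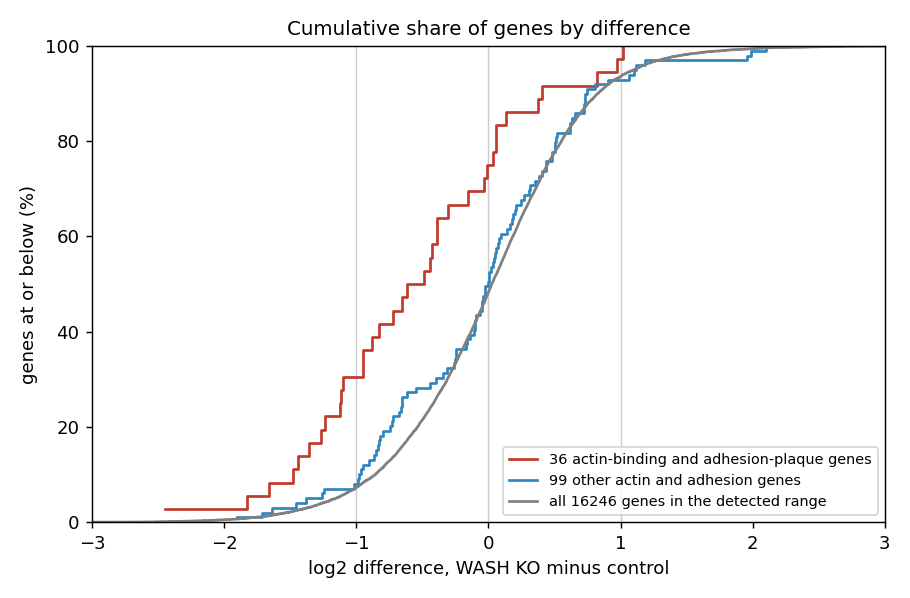
Cumulative share of genes (percent) by log2 difference (WASH KO minus control) for the 36 actin-binding and adhesion-plaque genes in the detected range, the 99 other actin and adhesion genes and all 16246 genes in that range. The curve of the 36 genes lies left of the others over most of the axis. Of these genes 30.6% are at or beyond 2-fold lower, against 8.08% of the 99 other genes and 7.29% of all genes. At 1.5-fold, 27 of the 99 are lower and 18 higher, where 18.3% and 18.5% of all genes are.

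Neutrophil markers were lower along with these genes. Of 16 neutrophil and granulocyte markers in the detected range, 12 were lower in WASH KO, and the median of the 16 was -0.82. At least 2-fold lower were 4 of the 16 (25%), where 7.29% of all genes were. Higher were Itgam (0.77), Stfa2l1 (0.40), Retnlg (0.33) and Cebpe (0.03), though other sequences of Itgam and Retnlg were lower, down to -1.73 and -1.49. None of the 18 measured was at or below the random-sequence level on either array. Their summed intensity was 57380 in WASH KO and 143831 in the control. The calprotectin genes S100a8 and S100a9 differed by -1.50 and -1.39, and the granule gene Ngp by -1.65. Neutrophils are rich in Lcp1, Coro1a, Cfl1, Msn and Tmsb4x transcripts, as background, and the part of the neutrophil signal in the lower actin genes was not tested.

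Mast cell, basophil and eosinophil markers were lower as well, in 3 of 4 genes with a median of -0.58, but the median was 0.11 with no filter on dim genes. Erythroid markers ran the other way. All 13 erythroid markers in the detected range were higher in WASH KO, with a median of 1.76 (1.60 with values under the random-sequence level set to it) and a summed intensity of 84261 in WASH KO and 15995 in the control. The globin genes Hbb-b1, Hba-a2 and Hba-a1 differed by 2.92, 2.27 and 2.41. Monocyte and macrophage markers had a median of 0.25, with 8 of 9 higher; Adgre1, Lyz2 and Ccr2 differed by 0.11, -0.91 and 0.25. Megakaryocyte and platelet markers, of interest because platelets are rich in talin, kindlin-3 and pleckstrin, had a median of 0.01, with 5 of 10 lower, and Clec1b, Itga2b and Vwf differed by -0.45, 0.49 and -0.02. The platelet chemokine genes Pf4 (-1.19) and Ppbp (-1.40) were at least 2-fold lower, 2 of the 10, where 7.29% of all genes were. Medians were 0.06 for B lymphoid markers (6 genes), -0.03 for T and NK lymphoid (8) and 0.12 for stromal and endothelial markers (8). In these lists, starting with mast cell, basophil and eosinophil markers, the genes with the highest mean level were Prg2 (-1.08), Prss34 (0.18) and Ms4a2 (-0.22), then Vpreb1 (0.40), Ms4a1 (0.96) and Pax5 (0.69), then Ncr1 (-0.20), Lck (0.07) and Thy1 (-0.70), and last Pecam1 (0.05), Pdgfra (0.40) and Acta2 (0.29). The part of erythroid RNA in the values of the actin genes was likewise not tested.

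**Figure D4:**
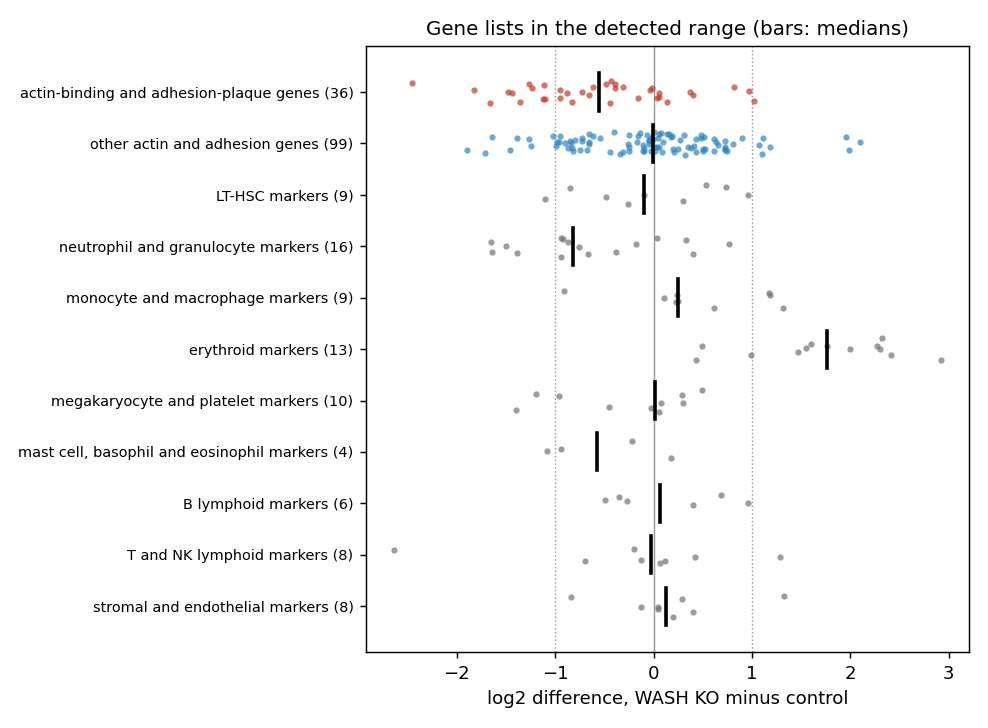
Log2 differences (WASH KO minus control) of single genes in the detected range, 1 row per gene list with the number of genes in brackets, black bars for medians and dotted lines at 2-fold. The actin-binding and adhesion-plaque genes (median -0.55) lie on the same side as the neutrophil and granulocyte markers (-0.82), and the erythroid markers (1.76) on the other.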

How the data were processed

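The authors deposited 1 linear intensity per sequence and array, made with RMA per the submitters' processing notes (release not given in the sources used here). Coordinates are on MM9 per the file headers, and 44155 sequences were read by 3 probes and 15 by fewer. RMA pulls array distributions together, so a shift of most genes would not be visible. The deposited series table held 34218 of the 44170 sequences, within 0.0412 intensity units.

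Intensities were turned into log2 values with no further scaling (Python 3.11.15, pandas 2.3.3). Gene names were updated through RefSeq, where 21583 gene identifiers matched. A fold against a value at or below the random-sequence level is given as a bound, with that level in its place; counts and medians use the values as deposited. With 1 array per genotype, no test was run; genes were counted at 2-fold (a log2 size of 1) in the detected range (percentile 50). The members, lists and roles were chosen with earlier results of these data known. Named were all members, the 5 most positive and 5 most negative of the other actin and adhesion genes, the 3 markers of each list with the highest mean level, and the sort genes Kit, Ly6a and Slamf1. Procr, Fgd5, Pf4, Ppbp, Elane, Prtn3, Cebpe, Itgam, Stfa2l1, Retnlg and the GC box were singled out after their values were seen. The summary of 1 role among the other actin and adhesion genes is not reported here. The counting was tested on simulated data with planted differences beyond 2-fold and little noise, which checks the counting step alone and not these data. Alternatives were the series table, quantile normalization, loess (span 0.3), an offset of 50, the mean or dimmest sequence, other filters (none, percentile 75, 2 times the random-sequence level) and sizes of 1.5-fold and 3-fold; 3 more were added after seeing the data.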

Additional observations from a re-analysis of the deposited data

How the results depend on the processing

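No paired analysis was possible because there was a single array for each genotype. The count of 11 members at least 2-fold lower stayed within 1.5 times under the other normalizations, filters and sequence choices, but out of differing numbers of detected members. It was 8 of 36 with the offset, 13 of 33 with the mean and 12 of 25 with the dimmest sequence. The shares of all genes there were 4.52%, 5.77% and 9.1%. It was 12 of 40 with no filter and 8 of 30 with both values above 2 times the random-sequence level, where 6.42% and 4.62% of all genes were. The count was 18 at 1.5-fold and 3 at 3-fold, where 18.3% and 1.72% of all genes were as low. Members at least 2-fold higher numbered 0 with the offset, with the mean or the dimmest sequence and at 3-fold, where 3.53%, 4.87%, 7.44% and 1.49% of all genes were, and 3 at 1.5-fold, where 18.5% were. With values at or below the random-sequence level set to it, also added after seeing the data, the counts stayed at 11 and 1, where 6.98% and 6.33% of all genes were. The members' median of -0.55 stayed below 0 in all 13 alternatives run: it was -0.74 when a gene's sequences were averaged, -0.95 with the dimmest, -0.41 with both values above 2 times the random-sequence level and, as alternatives added after seeing the data, -0.76 over every sequence and -0.73 over the 11 members whose sequences all differed one way. The last of the 13 is no check. Its members were picked by the direction of their sequences, 10 lower and 1 higher, which fixed the sign of their median. By role, averaged sequences gave -1.20 for bundling, -0.37 for myosin and tropomyosin and -0.53 for adhesion plaques; the dimmest sequence gave -1.30 for elongation, -1.22 for myosin and tropomyosin and -0.65 for adhesion plaques. Some role medians moved upward by smaller amounts. Elongation was at -0.15 with no filter and monomer binding at -0.18 with the dimmest sequence. Adhesion plaques were at 0.22 with both values above 2 times the random-sequence level. Of the other actin and adhesion genes, 3 of 79 were lower with the mean and 3 of 99 at 3-fold, where 5.77% and 1.72% of all genes were. At 1.5-fold, 27 of 99 were lower and 18 higher, where 18.3% and 18.5% of all genes were. Higher were 4 of 68 at the percentile 75 filter, where 5.68% of all genes were, and 3 of 99 at 3-fold, where 1.49% were. Also higher were 3 of 99 with the offset, 3 of 79 with the mean, 3 of 49 with the dimmest sequence and 3 of 78 with the random-sequence filter. The shares of all genes there were 3.53%, 4.87%, 7.44% and 3.77%. The median of the other actin and adhesion genes was -0.10 with the mean and -0.25 with the dimmest sequence. With the dimmest sequence, 12 of the 26 detected members that had several sequences changed sign: Twf2, Coro1c, Limk1, Ssh1, Myh9, Myl6, Tpm3, Tpm4, Msn, Vcl, Zyx and Fermt3. Of these, Msn (0.48, under the random-sequence level on both arrays) and Fermt3 (-0.21) had been at least 2-fold different. Among marker medians, that of B lymphoid genes was 0.06 and reached 0.69 at the percentile 75 filter, that of stromal and endothelial genes turned to -0.33 and that of LT-HSC genes to 0.42 with the dimmest sequence, and that of neutrophil markers stayed between -0.93 and -0.71. Stricter sizes count fewer genes by construction. Closeness to the random-sequence level limits Pxn, Gsn, Capg, Coro1b and Pfn1.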

Other observations

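Within the other actin and adhesion genes, the roles differed in how many genes were lower in WASH KO. Monomer binding and disassembly genes were lower in 6 of 9 genes (median -0.14). Formins were lower in 2 of 8 (0.27), membrane linkers in 4 of 10 (0.17), bundling genes in 8 of 16 (-0.08), myosin and tropomyosin genes in 6 of 13 (0.00) and adhesion-plaque genes in 13 of 27 (0.20). These medians depended on the processing: that of the adhesion-plaque genes lay between -0.04 and 0.03 with averaged or dimmest sequences and with no filter or a stricter one. With the dimmest sequence the monomer binding and disassembly genes had a median of 0.36 and the myosin and tropomyosin genes of -0.58. Of the myosin light chain genes, Myl12b, a regulatory chain of non-muscle myosin, was at 503 in WASH KO and 1207 in the control (-1.26). Its second sequence differed by -1.29. Another such gene, Myl12a, went the other way, at 212 in WASH KO and 128 in the control (0.73), and its second sequence differed by 0.20. Myl9 differed by -1.02 with its brightest sequence, while its most positive one differed by 0.40. Ank1 was higher with all 5 of its sequences, by 0.50 to 1.99, beside the erythroid markers, which were also higher; the part of erythroid RNA in its value was not tested. Myl12b, Myl12a and Myl9 were chosen after their values were seen.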
